A study of Mus musculus with 5 samples.

Results

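The complement genes described here are 9 genes chosen by name: C3, C4b, Cfb, Cfi, C1qa, C1qb, C1qc, Cd55 and Cd59a. Their rows were taken from the healthy and the obstructed count tables, which hold 22980 genes in either table, and all 9 were found in both. The libraries came from kidneys of C57BL/6 mice. One healthy kidney library was made from whole cells by Drop-seq (3531 barcodes), and healthy nuclei were profiled by sNucDrop-seq (3011), DroNc-seq (2769) and 10x (2084). The obstructed group was a 10x library of 6147 nuclei from a kidney taken at day 14 of unilateral ureteral obstruction (UUO). In this surgical model a tied-off ureter leads to tubular injury and fibrosis. Each group was 1 library, so no comparison has a replicate check and no test of conditions was possible. The intervals given are exact 95% intervals that cover counting error only.

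Complement is a cascade of plasma and cell-surface proteins that marks targets for clearance and lysis. C1q starts the classical pathway, C4 and C3 are cleaved and deposited, factor B builds the C3 convertase of the alternative pathway, and factor I, CD55 and CD59 restrain the cascade at different steps. Most circulating complement is made by the liver, while kidney tubule cells, fibroblasts and macrophages are known local sources of some components.

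The libraries held between 2947137 and 7411036 unique molecular identifiers (UMIs, here called counts), with a median of 1055 to 1630 per barcode. The healthy 10x and UUO libraries shared 23 barcode sequences, and leaving these out changed no call on the 9 genes or on the wider complement list. The healthy 10x library carried Xist at 1321 counts per 1000000 UMIs (CPM) and 4 Y-linked genes together at 3.73 CPM, against 0.405 and 619 CPM in the UUO library, so the 2 libraries differ in sex-linked transcripts as well as in obstruction, and the effects of these cannot be told apart. Xist and the Y-linked genes stood at 0 and 446 CPM in sNucDrop-seq nuclei and at 1309 and 8.70 CPM in DroNc-seq nuclei. The proximal tubule (PT) marker list of 7 transporter and uptake genes summed to 13899 CPM inside and 1315 CPM outside the PT labels of the healthy 10x library, and to 1010 and 107 CPM in the UUO library, so the PT labels held their markers in both, at a lower level after obstruction. The rarest genes of the healthy 10x library were most often seen in 11 barcodes, equal to 3.73 CPM, and those of the UUO library in 1 barcode. In DroNc-seq the rarest genes were most often seen in 10 barcodes (1.71 CPM), and in sNucDrop-seq in 3 (0.648 CPM). A gene at 0 over one of these healthy nuclear libraries is therefore given as listed at 0, with no fold.

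The sequences upstream of 3 of these genes are shown because their UUO patterns differ. C3 was seen across all UUO labels, the C1q genes were highest in macrophages, and Cd55 had the lowest UUO ratio of the genes compared. Each is the 250 bases before the RefSeq transcription start on GRCm38.p6, read 5′ to 3′ on the gene's strand, which is the minus strand for all 3. RefSeq promoter entries were matched for 5 of the 9 genes. Capitals mark every match, on either strand, to the C/EBP core (TTGCNNAA), the GAS element (TTCNNNGAA), AP-1 (TGANTCA), the TATA box (TATAAA), the PU.1 core (GAGGAA) or the GC box (CCGCCC).
C3, chr17:57228137-57228386: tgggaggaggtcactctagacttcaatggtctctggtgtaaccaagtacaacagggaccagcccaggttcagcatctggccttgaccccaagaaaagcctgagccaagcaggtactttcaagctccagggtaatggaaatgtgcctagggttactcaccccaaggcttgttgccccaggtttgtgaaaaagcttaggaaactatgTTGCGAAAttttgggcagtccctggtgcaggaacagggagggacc
C1qb, chr4:136886201-136886450: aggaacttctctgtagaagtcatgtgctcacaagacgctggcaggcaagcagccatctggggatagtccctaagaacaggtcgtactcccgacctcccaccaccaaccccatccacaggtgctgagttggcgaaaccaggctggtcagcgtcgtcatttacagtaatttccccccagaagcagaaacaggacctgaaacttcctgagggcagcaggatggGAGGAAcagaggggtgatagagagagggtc
Cd55, chr1:130462745-130462994: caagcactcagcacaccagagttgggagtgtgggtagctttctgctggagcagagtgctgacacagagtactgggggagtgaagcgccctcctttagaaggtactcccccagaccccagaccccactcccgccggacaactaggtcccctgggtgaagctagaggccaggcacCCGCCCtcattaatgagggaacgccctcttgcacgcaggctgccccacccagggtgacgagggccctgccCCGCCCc
The C3 window held 1 C/EBP core, TTGCGAAA, between 45 and 38 bases before the start, a motif found in 9.56% of 32851 RefSeq windows of the same length. The C1qb window held 1 PU.1 core between 30 and 25 bases before the start, a motif found in 23.3% of windows. The windows of C1qc and of Cd59a, which are not shown, also held this core. The Cd55 window held 2 GC boxes, at 77 to 72 and at 7 to 2 bases before the start, a motif found in 32.7% of windows. None of the 3 windows held a GAS element (7.02% of windows), an AP-1 site (6.75%) or a TATA box (12.4%). A match is a description of the letters and not evidence that a factor binds there.

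C3 (chr17:57203970-57228136, minus strand), the component on which all activation routes converge, was seen in the UUO library at 38.2 CPM (283 counts in 265 nuclei). It was listed at 0 in the healthy 10x library. The other healthy levels were 1.30 CPM (6 counts in 3 nuclei) with sNucDrop-seq, 1.53 CPM (9 counts in 8 nuclei) with DroNc-seq and 2.76 CPM (19 counts in 18 cells) with Drop-seq. The UUO interval, 33.9 to 42.9 CPM, overlapped none of those of the healthy libraries in which C3 was above 0. All 5 of the genes absent from the healthy 10x library (C3, C4b, C1qa, C1qb and C1qc) belong to the 866 of 12784 genes with at least 20 UUO counts (6.77%) that were listed at 0 there. The median UUO level of those genes was 4.59 CPM, and 26 (0.203% of the 12784) were at or above C3 on this count scale, which is not corrected for transcript length.

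**Figure D1:**
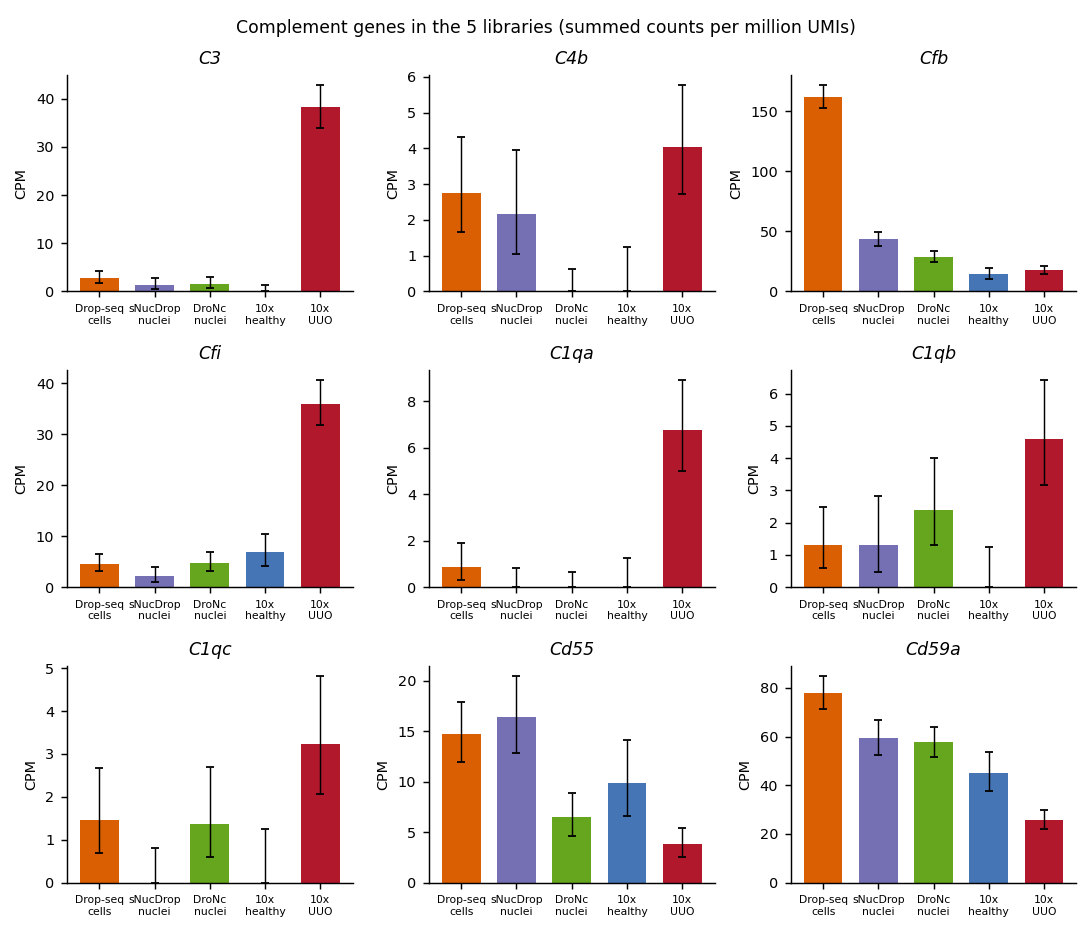
Level of each of the 9 complement genes in the 5 libraries, in CPM (y axis, linear, own scale per gene), with bars for the summed library and lines for exact 95% Poisson intervals of the counts. C3 reached 38.2 CPM in the UUO library against at most 2.76 CPM elsewhere, Cfi reached 36.0 against at most 6.79, and Cfb was highest in whole cells at 162 CPM.

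Against healthy nuclei of the other platforms, where C3 was above 0, its log2 ratio was 4.88 (3.74 to 6.34) over sNucDrop-seq and 4.64 (3.69 to 5.78) over DroNc-seq, so platform and obstruction differ together in both, and sex-linked transcripts differ as well for DroNc-seq. In those comparisons 19.0% of 14173 and 17.2% of 13876 measured genes were at least 2-fold higher, and 31.1% and 29.1% lower. Within PT nuclei C3 was at 43.5 CPM after obstruction, against 0.695 CPM (2 counts) in sNucDrop-seq and 1.21 CPM (4 counts) in DroNc-seq, where 20.0% and 19.8% of genes were higher and 33.5% and 29.7% lower.

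C3 counts were recorded across the labels of the obstructed kidney and not only in the PT labels. Counts were present in 17 of 17 UUO labels, between 10.2 CPM in podocytes (Pod, 1 count) and 63.7 CPM in macrophages (4 counts), with a median of 32.3 CPM. Among labels with more counts, the S1 segment of the proximal tubule stood at 58.9 CPM (23 counts), the distal convoluted tubule (DCT) at 51.9 (28), dedifferentiated PT at 51.4 (10), S2 at 47.6 (98), thick ascending limb (TAL) at 36.9 (31), S3 at 28.4 (22), principal cells of the collecting duct (CD-PC) at 24.8 (11) and connecting tubule (CNT) at 18.6 (11). Compared with all other UUO nuclei, 2 labels had an interval clear of equality: S2 was 1.38-fold above and CNT was 0.467 times the rest. The level outside the PT labels was 33.1 CPM, or 76.2% of the level inside, whereas the PT marker list outside was 10.6% of its level inside. The share of PT nuclei with a C3 count was 6.12%. Among PT nuclei with at least 500 UMIs, each thinned to 500, it was 2.46%. Nuclei with fewer UMIs are left out of thinned shares, so shares before and after thinning cover different nuclei. The thinned shares were 3.10% (1.78% to 4.99%) in DCT and 1.55% (0.802% to 2.69%) in the ascending limb, so these classes overlapped PT. Whether free RNA in the droplets adds to the C3 level in any label was not tested.

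C4b (chr17:34728380-34743882, minus strand) encodes complement C4 of the classical and lectin pathways. It stood at 4.05 CPM (30 counts) in the UUO library, 2.76 (19) in Drop-seq cells and 2.16 (10) in sNucDrop-seq nuclei, and it was listed at 0 in DroNc-seq and healthy 10x nuclei. The 3 intervals overlapped, and the log2 ratio of UUO to sNucDrop-seq nuclei was 0.91 (-0.17 to 2.10). Of the UUO counts 22 of 30 lay in PT nuclei, 6.05 CPM inside against 2.12 CPM outside. C4b shares sequence with its neighbour C4a: 29.7% of the 60-base windows of the longest C4b transcript, and 31.8% of those in its last 600 bases, also occur in C4a transcripts, so reads could be split between the 2 genes. C4a is among the genes of the healthy libraries (25 counts in Drop-seq cells, 10 in sNucDrop-seq nuclei) and not among those of the UUO library. This limit therefore differs between the libraries, and its part in the C4b ratio was not tested.

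Cfb (chr17:34856374-34862518, minus strand), the serine protease of the alternative pathway convertase, stood higher in whole cells than in any nuclear library, while its level in the healthy and obstructed 10x nuclei overlapped. It stood at 162 CPM (1116 counts) in Drop-seq cells, and among nuclei at 43.4 (201) with sNucDrop-seq, 28.6 (168) with DroNc-seq, 14.3 (42) with healthy 10x and 17.7 (131) with UUO. The healthy 10x and UUO intervals overlapped, with a log2 ratio of 0.31 (-0.20 to 0.85). Against the healthy nuclei of the other platforms the UUO level was lower, with log2 ratios of -1.30 (sNucDrop-seq) and -0.70 (DroNc-seq), so the sign of the ratio differed with the reference. Within PT it was at 25.3 CPM in healthy 10x and 22.0 CPM in UUO nuclei, a log2 ratio of -0.20 (-0.82 to 0.46). Among PT barcodes, whole cells held 182 CPM of Cfb against 50.7 with sNucDrop-seq, 37.1 with DroNc-seq and 25.3 with healthy 10x nuclei. The log2 ratios of cells over nuclei were 1.84 (1.59 to 2.10), 2.29 (2.02 to 2.57) and 2.85 (2.33 to 3.42), where 17.9%, 19.7% and 21.6% of measured genes reached a 2-fold higher level in cells; the medians of all genes were -0.93, -0.92 and -0.80. These 3 comparisons share the cell library.

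Every library had Cfb counts in the PT labels and at a lower level outside them. In Drop-seq cells 96.1% of Cfb counts were in PT cells, which held 85.8% of all UMIs, and S3 cells (196 CPM) were 1.64-fold above all other cells. The level outside PT, as a percentage of that inside, was 24.2% for Drop-seq, 61.9% for sNucDrop-seq nuclei, 47.5% with DroNc-seq, 27.0% for the healthy 10x library and 61.4% after obstruction. The PT marker list gave 25.8%, 40.9%, 31.6%, 9.46% and 10.6% in the same libraries. In the UUO library no label had a Cfb interval clear of all other nuclei. The highest levels were in podocytes (30.6 CPM, 3 counts) and S1 (28.2 CPM, 11 counts), and the JGA label had none. The annotation places Gm20547 over Cfb on the same strand, so reads in the overlap cannot be assigned to Cfb alone.

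Cfi (chr3:129835884-129875332, plus strand) encodes factor I, the protease that cleaves and inactivates C3b and C4b. It was the 1 gene of the 4 measured in both 10x libraries that was called higher in the UUO library. A gene was called when the levels differed at least 2-fold and both sums together held at least 20 counts. Over all genes, 10.2% of 12831 measured were called higher and 20.5% lower. Cfi stood at 36.0 CPM (267 counts) in UUO and 6.79 CPM (20 counts) in healthy 10x nuclei, a log2 ratio of 2.41 (1.75 to 3.14), or 5.31-fold. The other healthy libraries held 4.51 CPM (31 counts, Drop-seq), 2.16 (10, sNucDrop-seq) and 4.77 (28, DroNc-seq), so all 4 healthy levels lay below the UUO interval of 31.8 to 40.6 CPM.

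In PT nuclei Cfi stood at 47.6 CPM (173 counts) against 8.42 CPM (10 counts), a log2 ratio of 2.50 (1.59 to 3.58). Of 11395 genes measured in PT, 14.6% were called higher and 20.7% lower. Split by segment, a choice made after the values were seen, the S1 and S2 labels held 59.2 CPM (145 counts) against 3.11 CPM (2 counts), a log2 ratio of 4.25 (2.37 to 7.31). The S3 labels held 20.7 CPM (16 counts) against 14.7 CPM (8 counts), a log2 ratio of 0.50 (-0.81 to 1.93). In these 2 comparisons 14.5% of 10127 and 20.2% of 7647 genes were called higher. The difference between the segments was not tested. In the healthy 10x library S3 was the highest Cfi label, 2.94-fold above all other nuclei, while in DroNc-seq nuclei the S1-S2 label was 2.51-fold above the others, so the healthy libraries did not share an order of segments.

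**Figure D2:**
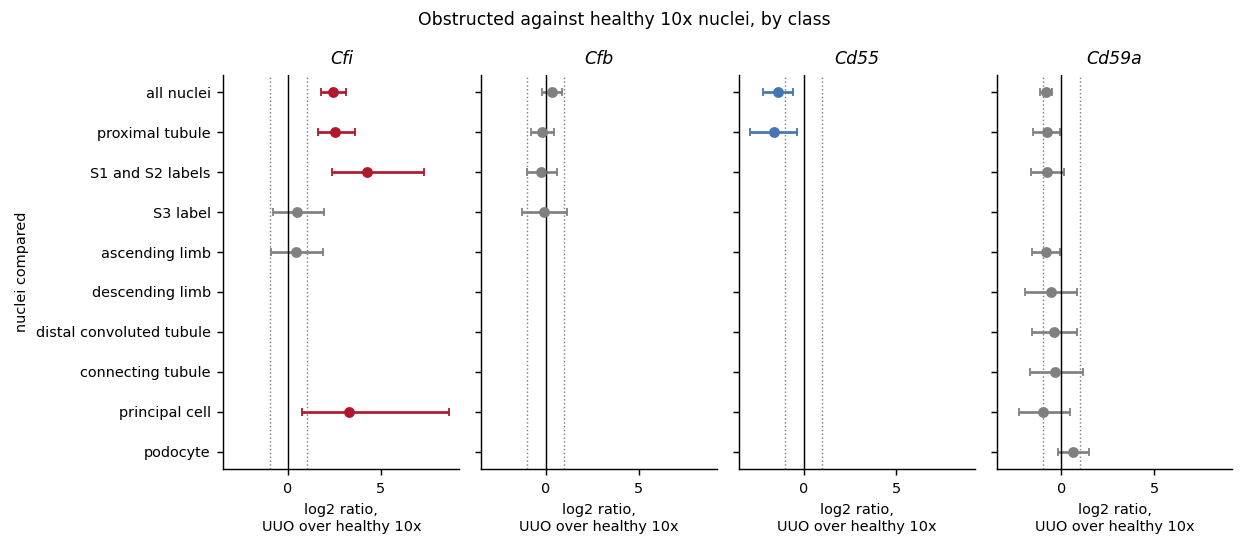
Log2 ratio of the level in UUO over healthy 10x nuclei (x axis) for Cfi, Cfb, Cd55 and Cd59a in each group of nuclei (y axis) with at least 20 counts over both libraries, where lines are exact 95% counting intervals, red and blue mark calls at 2-fold (dotted lines) and grey marks values not called. Cfi was called higher in all nuclei, proximal tubule, the S1 and S2 labels and principal cells, and not in the S3 label (0.50) or the ascending limb (0.44).

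Outside PT, the principal cells of the collecting duct stood apart for Cfi: 85.8 CPM (38 counts) in the UUO library against 8.76 CPM (1 count), a log2 ratio of 3.29 (0.73 to 8.63), where 21.4% of 4925 measured genes were called higher. Among nuclei with at least 1000 UMIs this ratio was 0.69 and was not called. The 3 principal cell markers (Aqp2, Hsd11b2 and Fxyd4) summed to 309 CPM in the UUO label and 6065 CPM in the healthy one, with all 3 above 0 in both. The UUO DCT label held 64.8 CPM of the same markers. The part of this difference in marker level in the Cfi ratio was not tested. The ascending limb held 16.7 CPM (14 counts) against 12.3 CPM (8 counts), a log2 ratio of 0.44 (-0.91 to 1.90), not called, where 16.0% of 8292 genes were called higher. With the mean of CPM over nuclei the ascending limb value was 1.06 and was called. Within the UUO library S1 (115 CPM, 45 counts) was 3.64-fold above, CD-PC 2.61-fold above and S2 (48.5 CPM, 100 counts) 1.56-fold above all other nuclei. S3, TAL (16.7 CPM), CNT (16.9 CPM) and DCT (1.85 CPM, 1 count) lay below them, and the macrophage label had no Cfi count. The DCT nuclei thus held 1 of 267 Cfi counts but 28 of 283 C3 counts, and the CD-PC nuclei 38 of the Cfi and 11 of the C3 counts. After thinning to 500 UMIs, 4.10% (2.13% to 7.04%) of CD-PC, 2.72% (2.09% to 3.46%) of PT and 0.194% (0.00491% to 1.08%) of DCT nuclei had a Cfi count. Nuclei with fewer UMIs are left out of these shares. Before thinning, over all nuclei of the same classes, the shares were 9.32%, 5.87% and 0.160%.

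**Figure D3:**
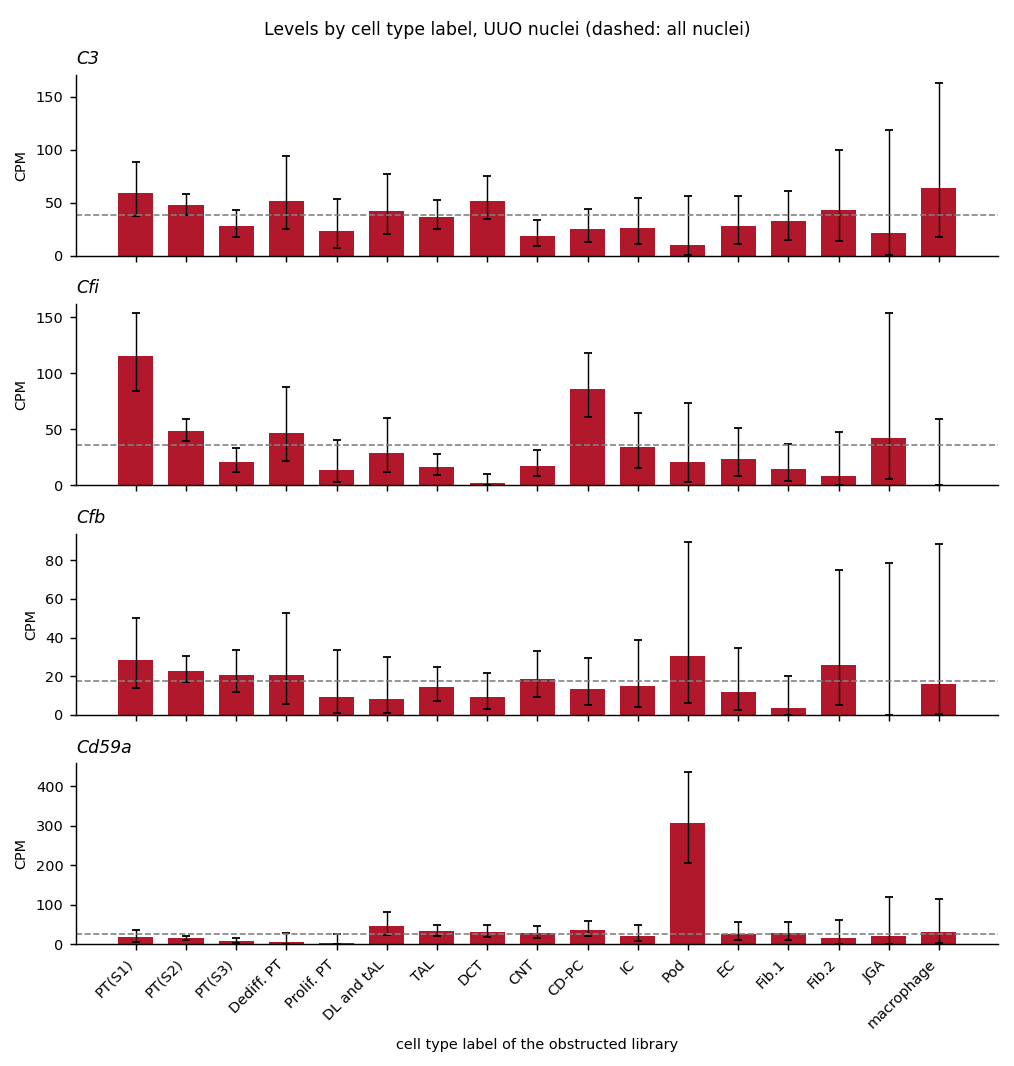
Levels of C3, Cfi, Cfb and Cd59a (y axes, CPM, linear) in the 17 cell type labels of the UUO library (x axis), with bars for summed counts, lines for exact 95% Poisson intervals and a dashed line for all UUO nuclei. C3 was present in each label, Cfi was highest in S1 (115 CPM) and CD-PC (85.8 CPM), and Cd59a was highest in podocytes (306 CPM).

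C1qa, C1qb and C1qc encode the 3 chains of C1q, the recognition molecule of the classical pathway, which macrophages make. They lie together on chromosome 4 within 18675 bases (136880129 to 136898803, minus strand). C1qa stood at 6.75 CPM (50 counts) in UUO nuclei and 0.873 CPM (6) in Drop-seq cells, and it was listed at 0 in the other 3 libraries. C1qb stood at 4.59 CPM (34) in UUO, 2.39 (14) in DroNc-seq, 1.31 (9) in Drop-seq and 1.30 (6) in sNucDrop-seq barcodes. C1qc stood at 3.24 CPM (24) in UUO, 1.46 (10) in Drop-seq and 1.36 (8) in DroNc-seq barcodes. The UUO level of C1qa was above the Drop-seq interval, and the libraries that listed C1qa at 0 were not compared. The C1qb interval overlapped that of DroNc-seq, and the C1qc interval overlapped those of Drop-seq and DroNc-seq.

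The sum of the 3 C1q genes was highest in the macrophage label of the 4 libraries in which it was above 0. It was 432 CPM against 1.32 CPM in all other labels of Drop-seq, 79.7 against 0.219 in sNucDrop-seq, 127 against 1.73 in DroNc-seq and 143 against 13.5 in UUO. The sum was C1qb alone in sNucDrop-seq and C1qb with C1qc in DroNc-seq, so these levels are not compared between libraries. The healthy 10x library had 3 macrophage nuclei and no C1q count. In the UUO library the macrophage label (130 nuclei, median 326 UMIs) held 9 of 108 C1q counts, and 91.7% lay in other labels. The counts outside it were in 12 of the 16 other labels, up to 28.7 CPM in Fib.1, a fibroblast label (8 counts), with 20.4 in DCT, 20.3 in CNT, 19.7 in endothelium (EC), 19.1 in TAL and 13.6 in S2. Macrophage markers were also found outside the label. The list of 10 genes summed to 1814 CPM in the UUO macrophage label, with 9 of 10 above 0 and Fcgr1 at 0. It lay between 115 and 402 CPM in the other labels except podocytes, whose 1762 CPM was mostly Mertk (1609 CPM). In the 3 healthy 10x macrophage nuclei 2 of the 10 markers were above 0 (Ptprc and Cx3cr1), and Adgre1, Csf1r, Cd68 and Lyz2 were at 0. Cx3cr1 was no mark of that label, since the other healthy 10x labels held 632 to 850 CPM of it. In UUO it stood at 175 CPM in the macrophage label and between 0 and 82.2 CPM in the others, which is part of their list sums. Whether C1q counts outside the macrophage label come from macrophage RNA in other droplets was not tested.

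**Figure D4:**
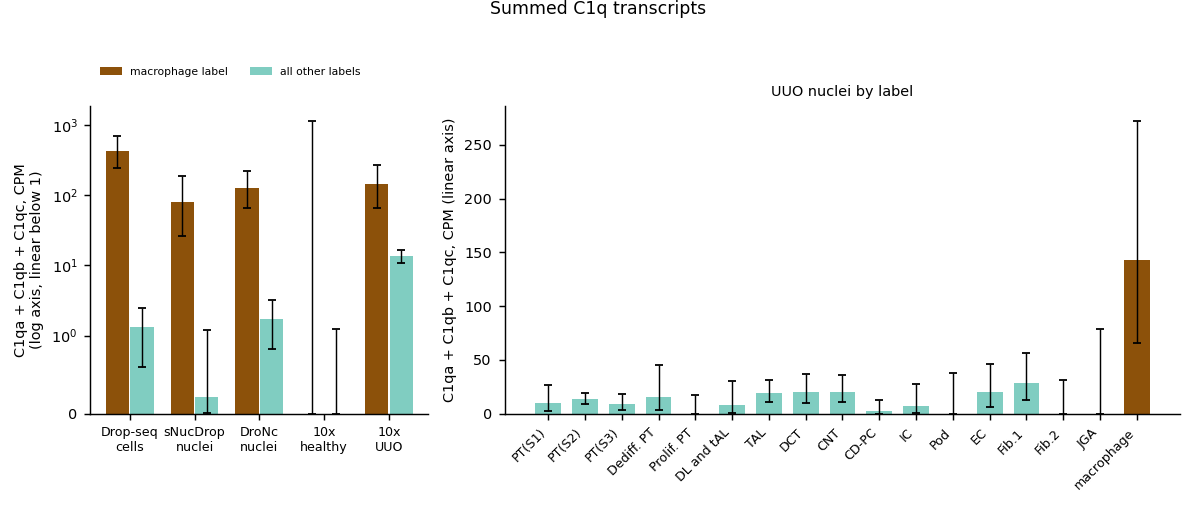
Left, summed level of C1qa, C1qb and C1qc (y axis, CPM, logarithmic above 1 and linear below) in the macrophage label and in all other labels of each library; right, the same sum in each UUO label on a linear axis. Lines are exact 95% Poisson intervals; the UUO macrophage label stood at 143 CPM and all other UUO nuclei together at 13.5 CPM.

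Cd55 (chr1:130439027-130462744, minus strand) encodes decay-accelerating factor, a membrane protein that dissociates C3 convertases, and it was called lower in the UUO library. It stood at 3.78 CPM (28 counts) in UUO and 9.84 CPM (29 counts) in healthy 10x nuclei, a log2 ratio of -1.38 (-2.18 to -0.58), or 2.60-fold lower, where 20.5% of all measured genes were called lower. Other healthy libraries held 14.7 CPM (101 counts, Drop-seq), 16.4 (76, sNucDrop-seq) and 6.48 (38, DroNc-seq), and the DroNc-seq and UUO intervals overlapped. In PT, Cd55 stood at 3.30 CPM against 10.1 CPM (12 counts each), a log2 ratio of -1.61 (-2.90 to -0.33). All 12 healthy 10x PT counts were in S3, while the UUO ones included 4 in S3 and 6 in S2. S3 had 253 nuclei beside 452 of S1-S2 in healthy 10x, and 473 beside 280 of S1 and 1401 of S2 in UUO. The part of segment make-up in the PT ratio was not tested. With the mean of each nucleus's CPM in place of the sum, Cd55 was no longer called over all nuclei (-0.66) or in PT (-0.89), and against DroNc-seq nuclei it was not called in either (-0.78 and -0.80). A Cd55 count was recorded in 11 of 17 UUO labels and in 8 of 13 healthy 10x labels.

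In healthy nuclei, podocytes and S3 had Cd55 intervals above those of all other nuclei. Podocytes held 80.3 CPM (9 counts) in healthy 10x nuclei, 77.3 (10) in sNucDrop-seq and 46.2 (9) in DroNc-seq, which is 11.4-fold, 5.27-fold and 9.02-fold above all other nuclei of those libraries. S3 held 22.0 CPM in healthy 10x nuclei, 24.0 with sNucDrop-seq, 18.5 with DroNc-seq and 20.1 with Drop-seq, each above the rest of its library. Principal cells stood at 26.3 CPM (3 counts) in healthy 10x, 25.2 (3) in sNucDrop-seq and 28.5 (2) in Drop-seq barcodes, above the S3 values but with intervals that overlapped the rest of each library, and DroNc-seq had none there. The S1-S2 label held 0 counts in healthy 10x, 10.8 CPM in sNucDrop-seq, 1.23 CPM in DroNc-seq and 6.44 CPM in Drop-seq barcodes. In the UUO library podocytes held 1 Cd55 count (10.2 CPM) and S3 held 4 (5.17 CPM), and no label had an interval clear of all others. Both label comparisons stayed at or under 16 counts over the pair of 10x libraries and were not called. The antisense gene Gm16083 overlaps Cd55, and the strand setting of the counting was not stated. Its paralog Cd55b shares 9.37% of 60-base windows with the longest Cd55 transcript and none in its last 600 bases.

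Cd59a (chr2:104095801-104115354, plus strand) encodes the membrane inhibitor of the membrane attack complex. It stood at 78.0 CPM (536 counts) with Drop-seq, 59.2 (274) with sNucDrop-seq and 57.6 (338) with DroNc-seq. The healthy 10x nuclei held 45.1 CPM (133 counts) and the UUO nuclei 25.8 CPM (191 counts). The UUO interval (22.2 to 29.7 CPM) overlapped no healthy interval, and the log2 ratio to healthy 10x nuclei was -0.81 (-1.14 to -0.48), short of the 2-fold rule. Against sNucDrop-seq and DroNc-seq nuclei it was -1.20 and -1.16 and was called lower, where 31.1% and 29.1% of all measured genes were. With the mean of CPM over nuclei it was called lower in PT (-1.04). Class by class the ratio was -0.79 in PT (12.7 against 21.9 CPM) and -0.81 in the ascending limb (33.4 against 58.5). Among nuclei with at least 1000 UMIs Cd59a was called lower over all nuclei (-1.05) and in the ascending limb (-2.02). It was -0.56 in the descending limb, -0.38 in DCT, -0.34 in CNT and -0.96 in principal cells, each with an interval that included 0. Marker lists of these tubules were lower as well, at 1404 CPM in UUO against 16380 CPM in healthy 10x nuclei for the thick ascending limb and 1026 against 14494 CPM for DCT, with Pvalb at 0 in the UUO label, and their part in the Cd59a values was not tested. In podocytes the value was in the other direction, 306 CPM (30 counts) against 196 CPM (22 counts), a log2 ratio of 0.64 (-0.20 to 1.50), not called, where 12.7% of 2147 genes were called higher. The 5 podocyte markers, all above 0 in both labels, summed to 5215 CPM in UUO and 4667 CPM in healthy 10x podocytes. Against podocytes of sNucDrop-seq and DroNc-seq the ratio was -0.19 and -0.25, so its sign differed with the reference. The difference between podocytes and other classes was not tested.

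Podocytes were the highest Cd59a label in each nuclear library. They held 348 CPM with sNucDrop-seq, 364 with DroNc-seq, 196 with healthy 10x and 306 with UUO nuclei, or 6.83-fold, 7.73-fold, 5.01-fold and 13.9-fold above all other nuclei. In healthy 10x nuclei the next label, EC (148 CPM, 8 counts), was 3.42-fold above the rest, and 27.6 CPM (7 counts) of Cd59a were found in UUO endothelium, together under the 20 counts needed for a call. In whole cells, where 2 podocytes were captured, Cd59a was high in distal labels: 408 CPM in the ascending limb, 385 in CD-PC, 382 in DCT and 321 in CNT, against 55.0 in S1-S2 and 29.2 in S3. The distal nuclei were lower, with 124 CPM in the ascending limb and 112 in DCT of DroNc-seq, and 122 and 111 in sNucDrop-seq. In each library the S3 label lay below the pooled level of all other labels (7.75 against 27.9 CPM in UUO). This was not particular to S3, since S1-S2 in the healthy libraries and S2 in UUO (15.1 CPM) also lay below the pooled rest. S3 was also not the lowest UUO label, as proliferating PT stood at 4.62 CPM and dedifferentiated PT at 5.14 CPM (1 count each). The share of podocyte nuclei with a Cd59a count was 30.2% with healthy 10x and 24.1% with UUO. After thinning, which left out nuclei with fewer than 500 UMIs, it was 7.55% (2.09% to 18.2%) and 16.2% (8.95% to 26.2%), with overlapping intervals. Its paralog Cd59b shares 2.58% of 60-base windows with the longest Cd59a transcript and none in its last 600 bases.

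Of the 9 genes, 4 could be compared between the 10x libraries, with 1 called higher, 1 lower and a median log2 ratio of -0.25. Over all measured genes 10.2% were called higher and 20.5% lower, with a median of -0.16. With TMM scaling all log2 ratios move up by 0.17 in both comparisons. The share of calls that are higher then goes from 33.4% to 44.4% over all nuclei and from 41.4% to 50.8% in PT, the TMM background being 13.4% higher and 16.8% lower over all nuclei. Cfi remained higher and Cd55 lower with that scaling.

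A wider list of 51 complement genes, of which 48 were found in either table, 40 in both and 18 were measured in both 10x libraries, had 4 genes called higher and 6 lower, beside 10.2% higher and 20.5% lower over all measured genes. With TMM scaling 4 were higher and 4 lower. The median log2 ratio of the list was -0.37, against -0.16 over all measured genes. Of the soluble regulators, 2 of 3 measured were called higher and 0 lower, with the same 10.2% and 20.5% over all measured genes. Clu (clusterin, which binds terminal complexes) stood at 526 CPM in UUO and 27.8 CPM in healthy 10x nuclei, a log2 ratio of 4.24 (3.93 to 4.58). Serping1 (C1 inhibitor) stood at 19.8 and 3.73 CPM, a log2 ratio of 2.41 (1.53 to 3.44). Of its 147 UUO counts, 70 were in Fib.1 (251 CPM), a label that the healthy 10x annotation does not have. The healthy 10x MC label, of 16 nuclei, held 1 Serping1 count (65.2 CPM), and the DroNc-seq MC label, of 146 nuclei, held 31 (118 CPM). Clu ranged over the 17 UUO labels from 245 CPM in proliferating PT to 1129 CPM in CNT.

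**Figure D5:**
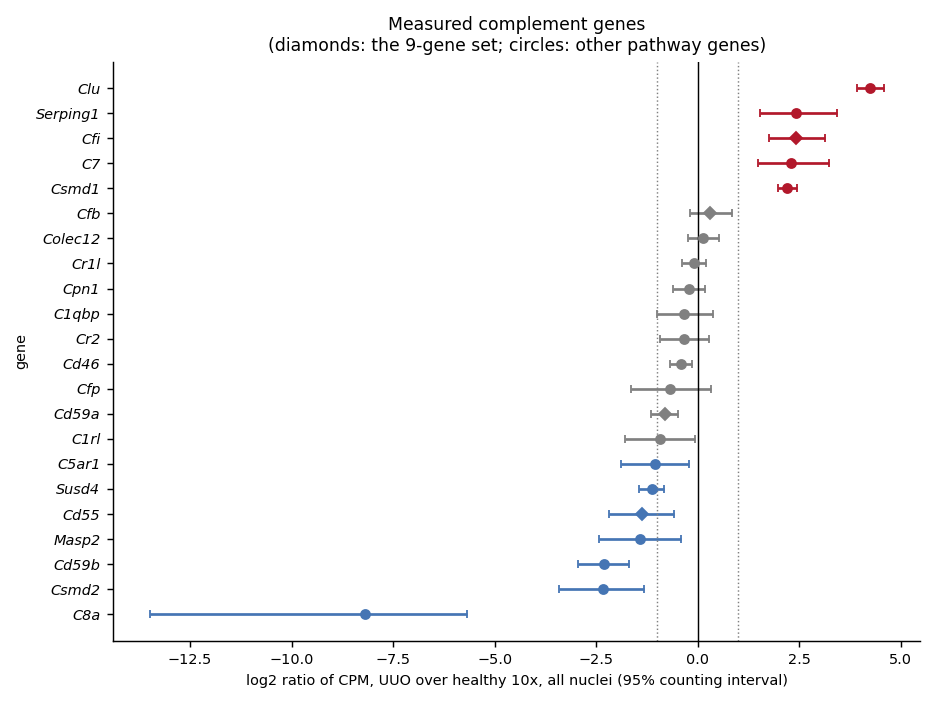
Log2 ratio of UUO over healthy 10x nuclei (x axis) for the 22 complement genes measured in both libraries (y axis), diamonds for the 4 of the 9-gene set and circles for the 18 others, with exact 95% counting intervals and dotted lines at 2-fold. Clu (4.24) was highest and C8a (-8.18) was lowest.

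Of the membrane regulators, 1 of 6 measured was called higher and 3 lower, beside 10.2% and 20.5% of all measured genes. Csmd1 stood at 255 against 55.3 CPM, a log2 ratio of 2.21 (1.97 to 2.45), with 4429 CPM (1234 counts) in Fib.1. The healthy 10x MC label held 2672 CPM of Csmd1, from 41 counts in 6 of 16 nuclei, 19 of them in 1 nucleus. The MC labels of sNucDrop-seq (147 nuclei) and DroNc-seq (146 nuclei) held 769 and 692 CPM. Cd59b stood at 4.59 against 22.7 CPM (-2.31), Csmd2 at 1.75 against 8.82 CPM (-2.33) and Susd4 at 26.0 against 57.0 CPM (-1.13). The Susd4 call was lost with TMM, with median-of-ratios scaling and with class shares held at the healthy 10x ones. Against sNucDrop-seq (9.93 CPM) and DroNc-seq nuclei (12.4 CPM) Susd4 was called higher, with log2 ratios of 1.39 and 1.06. Cd46 (41.3 against 55.0 CPM, -0.41) and Cr1l (45.6 against 48.5 CPM, -0.09) were not called. So Cd55 and both Cd59 genes were lower in UUO than in healthy 10x nuclei, Cd59a by less than 2-fold, while Cr1l and Cd46 differed less.

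Of 2 terminal components measured, 1 was called in each direction, beside 10.2% higher and 20.5% lower over all measured genes. C7 stood at 21.7 against 4.41 CPM, a log2 ratio of 2.30 (1.49 to 3.24), and 109 of its 161 UUO counts were in Fib.1 (391 CPM). The 16 nuclei of the healthy 10x MC label held 3 of 13 C7 counts (195 CPM). Against sNucDrop-seq nuclei the C7 ratio was 0.90 and was not called. C8a, the alpha chain of C8, went the other way, with 1 UUO count (0.135 CPM) against 115 counts (39.0 CPM), a log2 ratio of -8.18 (-13.49 to -5.67). Its healthy 10x counts were mostly in S3 (97 counts, 178 CPM), where the UUO library had none, so that it was at least 45.9-fold lower against a floor of 3 counts. Masp2 of the lectin pathway (2.43 against 6.45 CPM, -1.41) and the receptor C5ar1 (3.91 against 8.14 CPM, -1.06) were called lower. The C5ar1 call was lost with TMM, with median-of-ratios scaling, with the mean of CPM over nuclei and without the barcodes richest in UMIs. Neither gene was called against sNucDrop-seq nuclei (0.03 for Masp2 and 0.01 for C5ar1) or DroNc-seq nuclei (0.51 and 0.35). Colec12, a collectin of the lectin group, held 222 UUO and 80 healthy 10x counts, a log2 ratio of CPM of 0.14 (-0.23 to 0.53), and was not called.

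The genes whose UUO levels over 16 labels were most like each abundant member, out of 6787 compared, are given as descriptions, since all labels share 1 library. For Cd59a the 3 most alike were Cblb (Pearson r 0.93), Nupr1 (0.90) and Nars2 (0.90), all highest in podocytes. For Cfi they were Fam107b (0.80) and Fam193a (0.80), both highest in S1 and next in CD-PC, and Ltn1 (0.78). For C3 they were Sumf1 (0.81), Tmem123 (0.81) and Gpr89 (0.80). Tmem123 and Gpr89 were highest in macrophages, where C3 held 4 counts, and Sumf1 in dedifferentiated PT. For Cfb they were Lyrm4 (0.85), Wdr7 (0.78) and Gm20431 (0.76).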

How the data were processed

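Healthy and UUO mouse kidneys were profiled by droplet RNA sequencing in 5 libraries, 1 per group. The authors deposited whole-number UMI counts per gene and barcode, with a cell type label for each barcode. Per the submitters' processing notes reads were aligned with STAR 2.5.3a to mm10, and per the deposited readme counts came from zUMIs. Strand use and doublet removal: not given in the sources used here. No doublet caller was run. No column of values was left without a sample.

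Counts were summed over the barcodes of each label, class (labels of the same segment joined) or library and divided by all UMIs of that sum (CPM). Ratios carry exact conditional intervals, levels exact Poisson and shares exact Clopper-Pearson intervals (95%, counting error only). A gene was measured when both libraries listed it and at least 20 counts were summed, and called at 2-fold. A class sum of 0 was set to a floor of 3 counts. With 1 library a group there was no test. The interval was tested on simulated counts. Tools were Python 3.11.15 (numpy 2.4.6, scipy 1.17.1) and edgeR 4.0.16 for TMM factors.

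The members and lists were chosen with earlier results of these data known. Named were all 9 members and, of the wider complement list, the 6 with the highest mean CPM and every gene called over all nuclei. An item of that list is not reported here and is left out of its counts. For members with at least 100 UUO counts, the 3 genes with the highest Pearson correlation of log2(CPM + 10) over UUO labels of at least 50 nuclei were also named, among genes of at least 20 CPM on average. Gene positions came from GENCODE vM21 and promoter sequences from RefSeq, both on GRCm38. Alternatives were other scalings, barcode minimums, count minimums and healthy references. Leaving out shared barcodes and splitting PT by segment were chosen after seeing the data.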

Additional observations from a re-analysis of the deposited data

How the results depend on the processing

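Of the alternative values of the 16 member log2 ratios, 174 in all, 159 stayed within the counting interval, 15 moved out of it and no called ratio changed sign; the uncalled Cfb ratio over all nuclei (0.31) and Cd59a ratio in podocytes (0.64) were negative against sNucDrop-seq (-1.30 and -0.19) and DroNc-seq nuclei (-0.70 and -0.25). Cfi was called over all nuclei in 12 of 12 alternatives that kept the healthy 10x reference (2.12 to 2.80) and in PT in 11 of 11 (2.43 to 2.69). In principal cells it was called in 7 of 8 (0.69 to 3.54), and lost among nuclei with at least 1000 UMIs. Cd55 was called in 10 of 11 alternatives over all nuclei (-1.57 to -0.66) and in 9 of 10 in PT (-1.70 to -0.89). Cd59a ran from -1.05 to -0.37 over all nuclei and was called in 1 of 12, and from 0.08 to 1.03 in podocytes, called in 1 of 8. With sNucDrop-seq nuclei as reference, 3 members were higher and 3 lower over all nuclei (all genes 19.0% and 31.1%). In PT 2 were higher and 3 lower (20.0% and 33.5%). Of 29 other complement genes measured over all nuclei, 6 were higher and 13 lower with that reference, beside the same 19.0% and 31.1%. With DroNc-seq nuclei 3 members were higher and 1 lower over all nuclei (all genes 17.2% and 29.1%). In PT 3 were higher and 1 lower (19.8% and 29.7%), the lower one being Cd59a and not Cd55 in both. Of 27 other complement genes measured over all nuclei, 6 were higher and 11 lower with DroNc-seq as reference, beside the same 17.2% and 29.1%. In both cases the cause was not tested. The count of lower members over all nuclei was 1 (Cd55). It was 0 with the mean of CPM over barcodes, 2 with barcodes of at least 1000 UMIs (Cd55 and Cd59a) and 0 with a count minimum of 100, which Cd55 does not reach. A count minimum of 100 also left 0 lower members in PT and 3 other complement genes lower, since fewer genes are measured. The count of other complement genes that were higher stayed within 1.5 times of 4 under each alternative. No paired analysis was possible because each group has 1 library. Depth limits C4b, the C1q genes and Cd55, which had at most 50 UUO counts each.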
